A study of Homo sapiens with 6 samples.

Results

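The NR2F receptors NR2F1, NR2F2 and NR2F6 and the antisense transcript NR2F1-AS1 were followed in human atypical teratoid rhabdoid tumor (AT/RT) cell lines. They are 4 of the 36532 genes in the deposited transcript files and hold 26 of the 173113 transcripts. The genes were chosen by measured values of these same libraries, so their levels are a description and no test was made. The transcripts were taken by gene symbol, and the TPM of a gene (a level per length of transcript, scaled to a fixed total in each library) is the sum over its transcripts. With them come the 32 LTR elements, of 720177 in a separate set of files, that lie wholly inside the span of NR2F1-AS1. LTR elements are the long terminal repeats and internal parts of endogenous retroviruses and related repeats.

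The study sequenced total RNA of 4 such lines in 6 libraries. AT/RT is an embryonal brain tumor defined by loss of SMARCB1, a subunit of the SWI/SNF chromatin remodeling complex, and per the study all of these lines lack it. The cells were untreated and grew in serum-free DMEM:F12 with EGF, basic FGF and B-27, and earlier work cited by the study placed CHLA 06 in group 2 of AT/RT and the other 3 lines in the neurogenic group 1. A single library was made of CHLA 02 and of CHLA 05, while CHLA 04 and CHLA 06 were each sequenced as 2 technical replicates. Every line is thus 1 biological sample, the spread between cultures was not measured, and a difference between lines cannot be told apart from a difference between single cultures.

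NR2F1 and NR2F2, also called COUP-TFI and COUP-TFII, are orphan nuclear receptors that bind repeats of the core motif AGGTCA and mostly repress transcription. In the developing brain NR2F1 patterns cortical areas and NR2F2 guides migrating interneurons, while in other tissues NR2F2 specifies veins and mesenchyme. NR2F6, or EAR2, is their closest relative and is known as a transcriptional repressor in T cells and in the brainstem. NR2F1-AS1 is a long noncoding RNA that starts close to NR2F1 and is transcribed away from it, on the other strand.

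In the GRCh38 coordinates of the files, NR2F1 (ENSG00000175745) lies on the plus strand at chr5:93583337-93594615 and NR2F1-AS1 (ENSG00000237187) on the minus strand at chr5:93409359-93585648, a span of 176290 bp. NR2F2 (ENSG00000185551) lies on the plus strand at chr15:96325938-96340263, and NR2F6 (ENSG00000160113) on the minus strand at chr19:17231883-17245940. The most abundant transcripts of NR2F1 (ENST00000327111) and NR2F1-AS1 (ENST00000606696) start 2049 bp apart and point away from each other. RefSeq places nearby starts of its own at 93583222 for NR2F1 and 93581219 for NR2F1-AS1, and the promoter windows of these RefSeq starts, 250 bases before to 50 after the start in GRCh38.p14, are shown because both genes begin here, together with the window of a further RefSeq start of NR2F1-AS1 and the 150 bases of an LTR element of the same gene. The NR2F1 window ends before the first base of ENST00000327111. Each is read 5′ to 3′ on the strand of its gene, and capitals mark the motif AGTTCA, a variant of AGGTCA, where it occurs.
NR2F1 promoter, chr5:93582972-93583271, plus strand: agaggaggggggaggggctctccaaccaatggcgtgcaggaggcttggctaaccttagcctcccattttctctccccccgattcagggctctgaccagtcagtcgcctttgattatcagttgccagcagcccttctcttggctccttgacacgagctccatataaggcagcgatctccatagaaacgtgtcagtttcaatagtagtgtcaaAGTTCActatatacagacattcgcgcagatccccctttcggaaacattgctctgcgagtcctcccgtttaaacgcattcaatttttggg
NR2F1-AS1 promoter, chr5:93581170-93581469, minus strand: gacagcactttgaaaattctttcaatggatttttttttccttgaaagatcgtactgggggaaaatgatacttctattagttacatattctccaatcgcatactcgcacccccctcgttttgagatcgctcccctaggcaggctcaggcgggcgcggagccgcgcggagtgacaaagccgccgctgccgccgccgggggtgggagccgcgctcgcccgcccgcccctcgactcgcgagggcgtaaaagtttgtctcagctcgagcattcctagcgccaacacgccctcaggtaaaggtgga
NR2F1-AS1 further promoter, chr5:93570776-93571075, minus strand: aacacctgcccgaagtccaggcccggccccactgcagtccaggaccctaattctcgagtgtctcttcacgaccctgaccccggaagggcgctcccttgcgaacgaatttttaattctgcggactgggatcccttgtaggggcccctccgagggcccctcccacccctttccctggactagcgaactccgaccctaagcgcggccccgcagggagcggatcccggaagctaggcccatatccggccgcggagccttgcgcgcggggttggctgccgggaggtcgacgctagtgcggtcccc
MLT1I element inside NR2F1-AS1, chr5:93545150-93545299, minus strand: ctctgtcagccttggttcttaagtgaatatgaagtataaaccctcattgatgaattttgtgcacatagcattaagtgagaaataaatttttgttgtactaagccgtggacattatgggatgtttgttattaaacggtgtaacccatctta

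The NR2F1 window held 1 AGTTCA, 1 CCAAT and 1 TATAA, searched on both strands, and had a GC content of 51.3%. The NR2F1-AS1 window next to it held 2 GGGCGG and 1 CCAAT and neither AGTTCA nor AGGTCA nor TATAA, with a GC content of 57.3%. The further NR2F1-AS1 window held none of these motifs and had a GC content of 66.7%, against a mean of 57.5% over all promoters. Over the 34943 promoters of the table, 10.5% held AGTTCA, 13.8% AGGTCA, 44.9% GGGCGG, 34.6% CCAAT and 20.5% TATAA. The table has 9 windows for 3 of the 4 genes, and it has no NR2F6.

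The libraries held 10265899 to 20520229 reads on transcripts, recovered from the steps of the TPM values, so that 1 read amounted to 0.117 to 0.236 TPM at a transcript length of 1000 bp. SMARCB1 RNA was at 13.5 to 26.2 TPM in the 6 libraries, although the study describes the lines as lacking its expression. RNA reads alone do not show whether protein is made, and neither the protein nor the DNA of the gene was examined here. Markers of 1 cell type did not run together. Over all genes with at least 1 TPM in a library, 28.5% had both CHLA 06 libraries below the other 4 and 16.8% had both above. Of the neural stem and progenitor markers, 4 of 7 had both CHLA 06 libraries below the other 4 and 1, VIM, had both above, at 19464 and 14708 TPM against 4629 to 13742 TPM. FABP7, a fatty acid binding protein of radial glia, was at 756 TPM in CHLA 02, 2236 and 4102 across the CHLA 04 libraries, 1400 in CHLA 05, and 0.566 and 1.43 in the CHLA 06 libraries. Of 4 measured neuronal markers, 2 had both CHLA 06 libraries below and 1 above. MAP2 was at 298 to 915 TPM in the libraries of the other 3 lines and at 7.20 and 5.41 TPM in CHLA 06, whereas TUBB3 was at 205 to 308 TPM in the other lines and at 311 and 455 TPM in CHLA 06. Fibroblast markers were split as well, 4 of 6 with both CHLA 06 libraries above and 2 below. The summed level of the 6 ran from 13.5 to 658 TPM and was led by COL1A1, a collagen, at 387 TPM in CHLA 02, 2.76 and 0.679 across the CHLA 04 libraries, 11.5 in CHLA 05, and 600 and 459 in the CHLA 06 libraries. PDGFRB, in contrast, was at 9.41 to 23.4 TPM in the other lines and at 4.45 and 3.85 TPM in CHLA 06. Endothelial markers summed to 0.239 to 5.26 TPM and blood markers to 0.444 to 23.0 TPM, with CD3E and HBB at 0 in every library. The part of cell type in the receptor levels was not tested. Fewer cells of a type and less RNA per cell cannot be told apart in such bulk samples.

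NR2F1 was the receptor with the widest range between lines. Its level was 104 TPM in CHLA 02 (2518 reads), 192 and 162 TPM in CHLA 04 (2957 and 4044 reads), 179 TPM in CHLA 05 (4278 reads), and 41.2 and 38.2 TPM in CHLA 06 (1161 and 1194 reads). CHLA 06 was therefore lowest, at 39.7 ± 2.13 TPM (SD, n = 2 technical replicates), and CHLA 04, at 177 ± 21.2 TPM (SD, n = 2), and CHLA 05 did not differ beyond the spread of the CHLA 04 libraries. CHLA 04 was 1.69-fold above CHLA 02, and CHLA 02 was 2.63-fold above CHLA 06, each with exact Poisson intervals (95%, counting error only) that did not overlap. The intervals of the 2 CHLA 04 libraries, 185 to 199 and 157 to 167 TPM, did not overlap either. Intervals that lie apart thus do not by themselves separate lines.

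NR2F2 followed another order of lines. It was at 68.5 TPM in CHLA 02 (2137 reads), 131 and 128 TPM in CHLA 04 (2641 and 3740 reads), 35.0 TPM in CHLA 05 (1006 reads), and 52.0 and 35.6 TPM in CHLA 06 (1804 and 1447 reads). CHLA 04 was highest at 129 ± 1.87 TPM (SD, n = 2), 1.89-fold above CHLA 02, which was 1.56-fold above CHLA 06 at 43.8 ± 11.6 TPM (SD, n = 2). CHLA 06 and CHLA 05 were neighbours at the low end. The CHLA 05 interval (32.9 to 37.3 TPM) overlapped that of the second CHLA 06 library (33.8 to 37.5 TPM) but not that of the first (49.6 to 54.5 TPM). Thus CHLA 05, among the highest lines in NR2F1, was at the bottom of the NR2F2 order with CHLA 06. NR2F1 and NR2F2 resemble each other in their coding sequence, and how reads that match both were assigned is not given in the sources used here.

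NR2F6 varied least. The libraries were at 70.0 TPM in CHLA 02 (1126 reads), 55.9 and 51.9 TPM in CHLA 04 (568 and 859 reads), 51.3 TPM in CHLA 05 (805 reads), and 73.6 and 86.9 TPM in CHLA 06 (1369 and 1785 reads). CHLA 06 was highest at 80.2 ± 9.43 TPM (SD, n = 2), 1.15-fold above CHLA 02. The CHLA 02 interval (66.0 to 74.2 TPM) overlapped that of the first CHLA 06 library (69.7 to 77.6 TPM) but not that of the second (82.9 to 91.0 TPM). CHLA 02 was 1.30-fold above CHLA 04 at 53.9 ± 2.80 TPM (SD, n = 2), and CHLA 04 and CHLA 05 lay 1.05-fold apart with overlapping intervals.

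NR2F1-AS1 had the widest range of all 4 genes. It was at 53.8 TPM in CHLA 02 (747 reads), 109 and 70.2 TPM in CHLA 04 (769 and 924 reads), 82.8 TPM in CHLA 05 (1003 reads), and 10.2 and 9.23 TPM in CHLA 06 (153 and 155 reads). The technical replicates of CHLA 04 were far apart, with a mean of 89.8 ± 27.8 TPM (SD, n = 2), and those of CHLA 06 were close, at 9.71 ± 0.681 TPM (SD, n = 2). CHLA 04 and CHLA 05 could not be ordered, and CHLA 02 was 5.54-fold above CHLA 06. CHLA 05 was 1.54-fold above CHLA 02, a log2 difference of 0.61. This difference turned to -0.67 with ENST00000606696 alone, the most abundant transcript in CHLA 02 but not in CHLA 05.

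**Figure D1:**
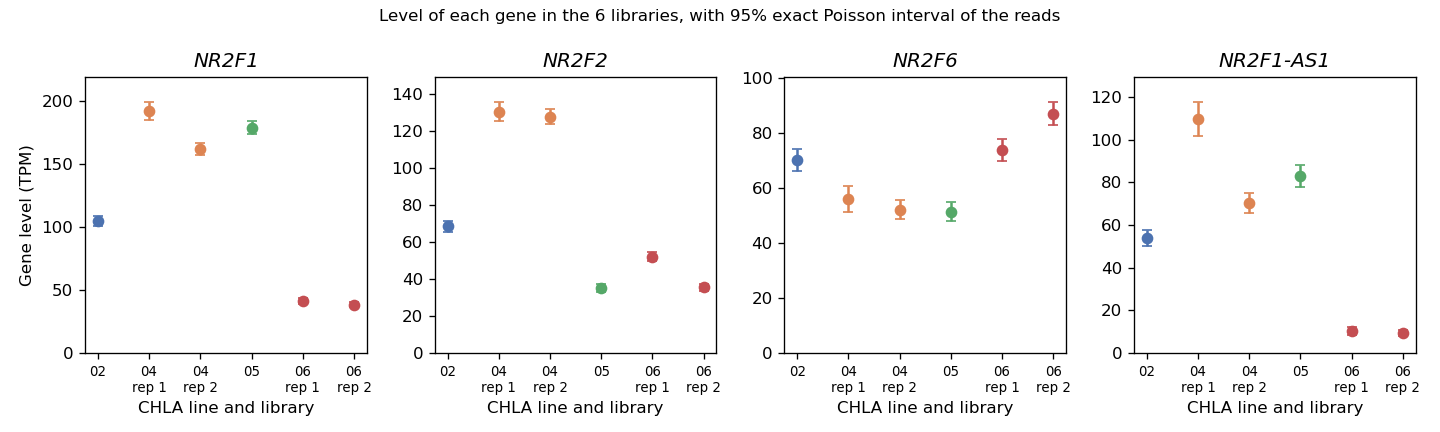
Level in TPM (y axis, linear from 0, a scale of its own per gene) of each gene in the 6 libraries (x axis, CHLA line and technical replicate), with bars for the 95% exact Poisson interval of the reads. CHLA 06 sits lowest for NR2F1 (41.2 and 38.2 TPM) and NR2F1-AS1 (10.2 and 9.23 TPM) and highest for NR2F6 (73.6 and 86.9 TPM), while NR2F2 is lowest in CHLA 05 at 35.0 TPM.

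Differences between lines were taken as log2(TPM + 1) between the line means, which understates the change of low genes, and a gene was counted when it was past 4-fold, among genes with at least 1 TPM in either line. Between CHLA 06 and CHLA 04, 2 of the 4 genes were past it, NR2F1 with -2.13 (library pairs from -2.30 to -1.95) and NR2F1-AS1 with -3.08 (-3.43 to -2.67), against 15.1% of all genes. Between CHLA 06 and CHLA 05, the same 2 genes were counted, NR2F1 with -2.14 (-2.20 to -2.09) and NR2F1-AS1 with -2.97 (-3.03 to -2.90), against 14.0%. Between CHLA 06 and CHLA 02, 1 gene was counted, NR2F1-AS1 with -2.35 (-2.42 to -2.29), against 4.53%, and NR2F1 was at -1.37. In the other 3 pairs 0 of the 4 genes were counted, against 6.06% of all genes for CHLA 04 and CHLA 02, 9.2% for CHLA 05 and CHLA 02, and 7.43% for CHLA 05 and CHLA 04. The comparisons with CHLA 06 share its 2 libraries, and nothing is read from these counts beyond the values, since the genes were chosen on them.

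The NR2F2 difference nearest to the threshold was that of CHLA 05 minus CHLA 04, at -1.85 (-1.87 to -1.84), a linear change of 3.69-fold. NR2F2 was at -1.54 in CHLA 06 minus CHLA 04 (-1.85 to -1.28) and at 0.31 in CHLA 06 minus CHLA 05 (0.02 to 0.56). NR2F6 stayed between -0.44 and 0.63 in all 6 pairs. The median over all genes was itself shifted, by -0.23 in CHLA 06 minus CHLA 04 and by -0.21 in CHLA 06 minus CHLA 05. Relative to these medians, NR2F1 was at -1.90 and -1.94, short of 4-fold, and NR2F1-AS1 at -2.85 and -2.76. The call of NR2F1 at 4-fold thus depended on the scaling, whereas that of NR2F1-AS1 did not. With ENST00000606696 alone, the most abundant transcript in CHLA 02 but not in CHLA 05, NR2F1-AS1 was at -1.64 in CHLA 06 minus CHLA 05. That is short of 4-fold.

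**Figure D2:**
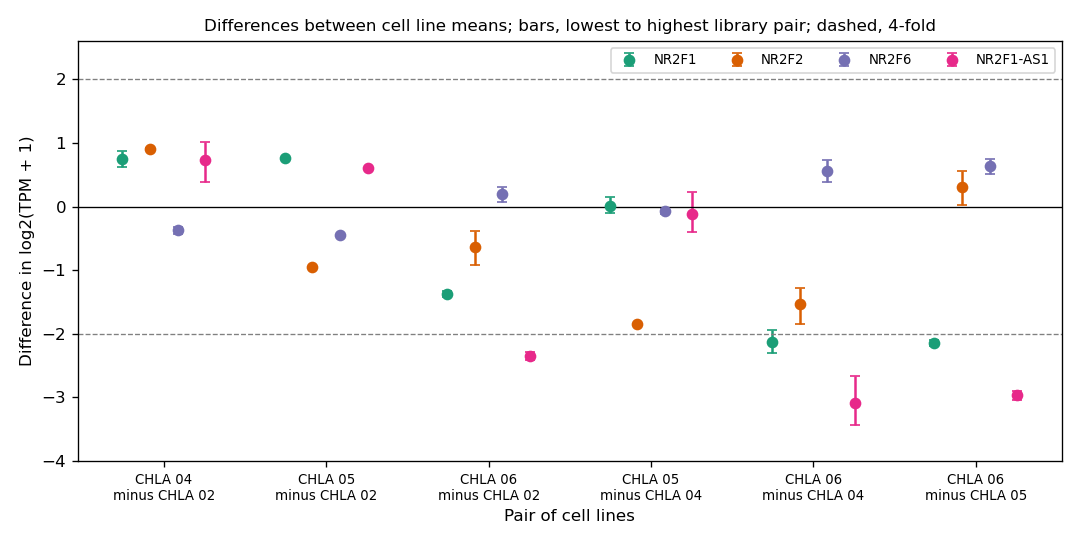
Difference in log2(TPM + 1) (y axis) between line means for the 6 pairs of cell lines (x axis), with a point per gene, bars from the lowest to the highest pair of libraries where a line had 2, and dashed lines at 4-fold. NR2F1-AS1 passes the lower line in all 3 pairs with CHLA 06 (-2.35, -3.08 and -2.97), and NR2F1 lies just past it against CHLA 04 (-2.13) and CHLA 05 (-2.14).

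By library, NR2F1 and NR2F1-AS1 had both CHLA 06 libraries below the other 4, as had 28.5% of all genes with at least 1 TPM in a library. NR2F6 had both CHLA 06 libraries above the other 4, as had 16.8% of genes. NR2F2 had neither pattern, because CHLA 05 at 35.0 TPM lay below both CHLA 06 libraries.

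The 3 receptors made different mixtures in the lines. Their summed level was 243 TPM in CHLA 02, 378 and 342 TPM in CHLA 04, 265 TPM in CHLA 05, and 167 and 161 TPM in CHLA 06. NR2F1 made up 43.0% of the sum in CHLA 02, 50.7% and 47.4% across the CHLA 04 libraries, 67.4% in CHLA 05, and 24.7% and 23.8% in CHLA 06. In contrast, NR2F6 made up 28.8% in CHLA 02, 14.8% and 15.2% across the CHLA 04 libraries, 19.4% in CHLA 05, and 44.1% and 54.1% in CHLA 06. CHLA 06 was thus the line in which NR2F6 was the most abundant receptor, and in the other lines NR2F1 was.

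The ratio of NR2F1 to NR2F2 was 1.52 in CHLA 02, 1.47 and 1.26 across the CHLA 04 libraries, 5.10 in CHLA 05, and 0.792 and 1.07 in the CHLA 06 libraries. CHLA 05 stood apart from the other 5 libraries in this ratio. The ratio of NR2F1 to NR2F1-AS1 was 1.94 in CHLA 02, 1.75 and 2.30 across the CHLA 04 libraries, 2.16 in CHLA 05, and 4.04 and 4.14 in the CHLA 06 libraries, so the antisense RNA was lower relative to NR2F1 in both CHLA 06 libraries than in the other 4.

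**Figure D3:**
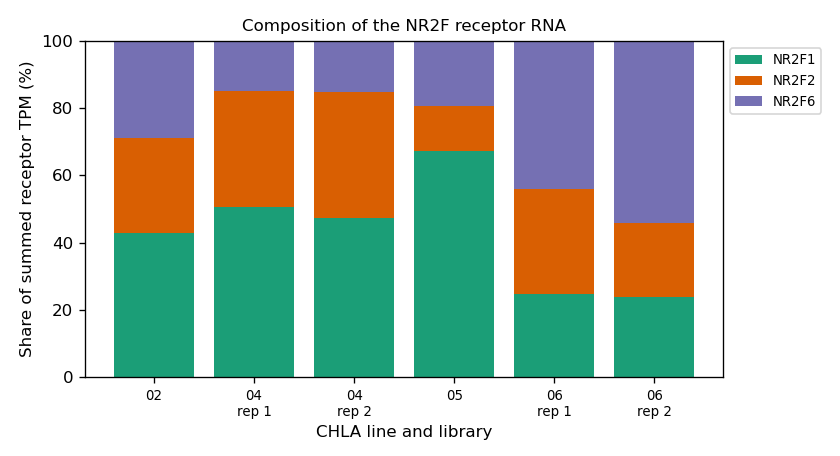
Share of the summed TPM of NR2F1, NR2F2 and NR2F6 (y axis, percent from 0 to 100) in each of the 6 libraries (x axis), stacked by gene. NR2F1 takes 67.4% in CHLA 05, and NR2F6 takes 44.1% and 54.1% in the CHLA 06 libraries.

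Most of the receptor RNA came from 1 transcript per gene. ENST00000327111, the full-length NR2F1 transcript, took 95.9 to 98.0% of NR2F1 TPM, and ENST00000291442 took 99.6 to 100% of NR2F6. The other NR2F1 transcripts above 1% in a library, ENST00000512697 and ENST00000502982, took at most 2.30% and 1.61%. NR2F2 was more mixed, with ENST00000394166 at 70.6 to 85.8% and a shorter transcript from a start inside the gene, ENST00000453270, at 9.82 to 13.2% in 5 libraries and 25.9% in the second library of CHLA 04. ENST00000421109, which begins upstream of the main NR2F2 start, took 2.29 to 9.43%, and ENST00000559679 at most 4.58%. Shares of transcripts that overlap depend on how the authors' program divided the reads among them.

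NR2F1-AS1 had 14 transcripts, of which 13 passed 1% of its TPM in a library. Of these, 6 begin between positions 93581007 and 93581297, next to NR2F1, and took 73.8% of NR2F1-AS1 TPM in CHLA 02, 59.2% and 54.9% across the CHLA 04 libraries, 59.2% in CHLA 05, and 70.3% and 74.9% in CHLA 06. Another 3 begin between 93570793 and 93571343, where the further promoter window shown above lies, and took 9.20 to 26.5%. Both kinds of start were lowest in CHLA 06 in absolute level. The transcripts from next to NR2F1 summed to 39.6 TPM in CHLA 02, 64.8 and 38.5 TPM in CHLA 04, 49.0 TPM in CHLA 05, and 7.16 and 6.91 TPM in CHLA 06, and those of the second cluster to 9.70, 22.4 and 18.6, 17.5, and 1.69 and 0.849 TPM in the same order.

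The most abundant NR2F1-AS1 transcript was not the same in every line. ENST00000606696 took 30.9% in CHLA 02, 20.1% and 22.9% across the CHLA 04 libraries, 12.1% in CHLA 05, and 35.1% and 16.2% in CHLA 06. ENST00000507963, a shorter transcript of 922 bases, took 15.1 to 27.7% and led in the first CHLA 04 library and in CHLA 05. ENST00000504474, which shares its last base with ENST00000606696, took 3.17 to 16.5% in the other lines and 9.72% and 28.7% in the CHLA 06 libraries. With 22 and 65 reads in these 2 libraries, this share differed more between the technical replicates of CHLA 06 than between the other lines. The transcript that starts over NR2F1, ENST00000513055, shares 158 bases with NR2F1 exons and had 0 to 11 reads.

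**Figure D4:**
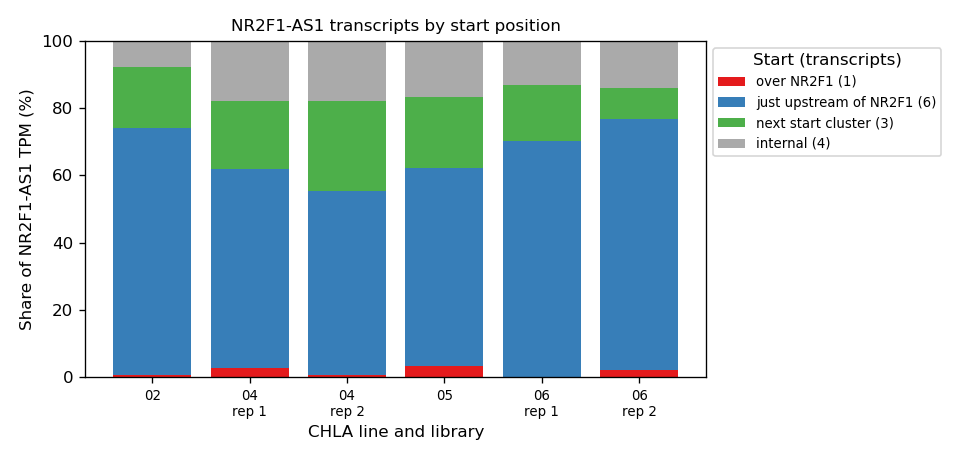
Share of NR2F1-AS1 TPM (y axis, percent from 0 to 100) in each of the 6 libraries (x axis), stacked by where the transcripts start, with the number of transcripts of each kind in the legend. The 6 transcripts that start next to NR2F1 hold the largest share in every library, from 54.9% in the second CHLA 04 library to 74.9% in the second CHLA 06 library.

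The LTR reads inside NR2F1-AS1 fell almost entirely on elements in the orientation of the gene, and the strand of the reads themselves is not known. Of the 32 elements, 14 lie in the orientation of NR2F1-AS1 (5553 bases) and all 14 had a read in a library, with 1822 reads in the 6 libraries together, or 328 per kb. The 18 elements in the opposite orientation (6918 bases) had 2 reads, or 0.289 per kb. Same-strand elements took 99.7 to 100% of the LTR reads inside NR2F1-AS1 in each library, against 84.3 to 92.4% over all genes. Over all genes 43.6% of 98605 same-strand elements and 9.73% of 175717 opposite-strand elements had a read. The library kit keeps the strand, and how the counting used it is not given in the sources used here. How reads that match several copies of a repeat were placed is not given either. Counts on an element may thus include reads from other copies.

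Reads on the same-strand elements numbered 342 in CHLA 02, 620 and 384 across the CHLA 04 libraries, 369 in CHLA 05, and 53 and 54 in the CHLA 06 libraries. Their summed TPM, which is scaled over LTR elements alone and cannot be set beside gene TPM, was 653 in CHLA 02, 1338 and 652 across the CHLA 04 libraries, 729 in CHLA 05, and 104 and 74.7 in the CHLA 06 libraries. Both CHLA 06 libraries lay below the other 4, and the first CHLA 04 library lay above all others, as it did for NR2F1-AS1 itself. The line means were 995 ± 485 (SD, n = 2) for CHLA 04 and 89.2 ± 20.5 (SD, n = 2) for CHLA 06.

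There were 9 elements with at least 5 reads in a library, all on the strand of the gene, 40.3 to 160 kb from the first base of NR2F1-AS1 and with 227 to 484 reads per kb over the 6 libraries. All 9 had both CHLA 06 libraries below the other 4, and 6 were highest in the first CHLA 04 library. An element could reach 5 reads through the other lines alone, as MLT1I did with 1 and 0 reads in CHLA 06. A low CHLA 06 is thus partly built into this count. The share of all LTR elements with the same pattern was not worked out, and nothing is read from the count. A THE1A element, a primate MaLR repeat, spans chr5:93504514-93506821 with its internal part and both LTRs, and it held 58.9% of the reads. It had 194 reads in CHLA 02, 383 and 216 across the CHLA 04 libraries, 213 in CHLA 05, and 32 and 36 in the CHLA 06 libraries.

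A HERV-K (HML-2) remnant lies farther into the gene, at chr5:93456674-93458206, with an LTR5_Hs, 2 pieces of HERVK-int and an LTR5B in the orientation of NR2F1-AS1. It held 18.1% of the reads, with 57 in CHLA 02, 108 and 68 across the CHLA 04 libraries, 72 in CHLA 05, and 9 and 15 in the CHLA 06 libraries. Its LTR5_Hs was at 39.5 TPM in CHLA 02, 97.4 and 45.7 across the CHLA 04 libraries, 63.2 in CHLA 05, and 5.66 and 11.7 in the CHLA 06 libraries. Over its 4 pieces the remnant had 228 reads per kb, and the THE1A element 466. Values at these repeats depend on how reads that match other copies were placed. The pieces differed, with 239 per kb on the LTR5_Hs and 361 on the longer HERVK-int piece. The remaining elements with at least 5 reads were MLT1H, MLT2B4, MLT1A0 and the MLT1I printed above, all ancient MaLR or ERVL repeats of mammals. MLT1I was at 79.5 TPM in CHLA 02, 62.3 and 59.9 across the CHLA 04 libraries, 29.3 in CHLA 05, and 6.83 and 0 in the CHLA 06 libraries, from 12, 7, 10, 4, 1 and 0 reads.

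None of the 9 elements touches an exon of the NR2F1-AS1 transcripts in the files, which follow Ensembl release 82. In the newer GENCODE v44 annotation of the same build, 10 of the 32 elements, and 5 of the 9 with at least 5 reads, overlap an exon of NR2F1-AS1, among them the THE1A element and the LTR5_Hs and HERVK-int pieces. Whether these reads came from introns or from such exons was not tested.

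**Figure D5:**
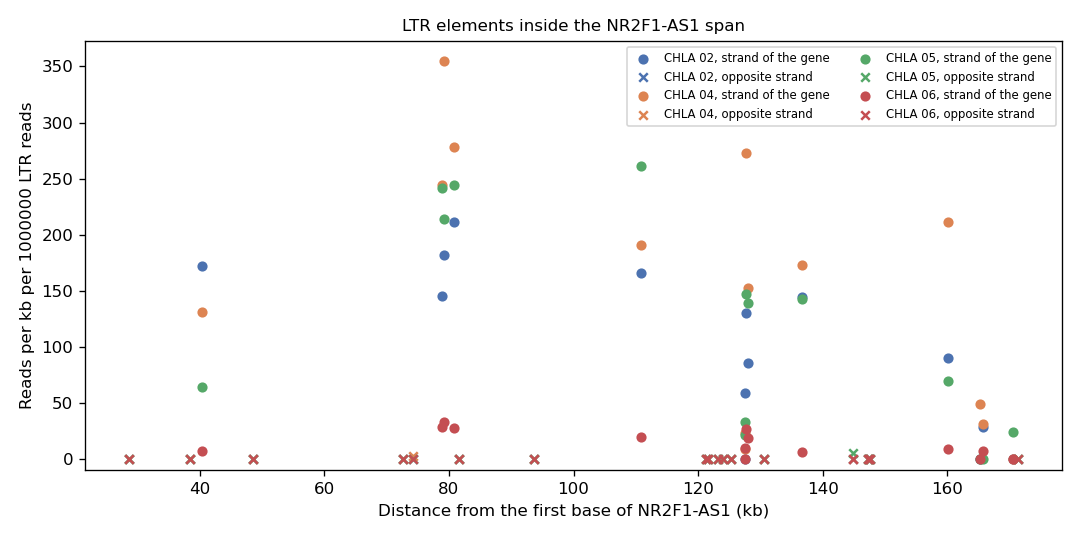
Reads per kb per 1000000 LTR reads, mean over the libraries of a line (y axis, linear), of the 32 LTR elements inside NR2F1-AS1 by distance from the first base of the gene (x axis, kb), with circles for elements on the strand of the gene and crosses for the opposite strand. Crosses lie at or near 0 (2 reads in all), and CHLA 06 circles lie below those of the other lines at the 9 elements with at least 5 reads.

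NR2F2 has an antisense partner as well. The NR2F2-AS1 transcript most abundant in CHLA 02 starts 3356 bp from the main one of NR2F2 and points away from it. NR2F2-AS1 was at 11.0 TPM in CHLA 02, 39.6 and 24.2 TPM in CHLA 04, 2.86 TPM in CHLA 05, and 4.27 and 2.82 TPM in CHLA 06. Its highest line was CHLA 04 and its lowest CHLA 05, as for NR2F2, though CHLA 05 and CHLA 06 rest on 25 to 31 reads per library. The difference of CHLA 05 minus CHLA 04 was -3.09.

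The 5 other genes within 500 kb of NR2F1-AS1 did not share its range. FAM172A was the only neighbour with a read and was at 66.4 TPM in CHLA 02, 61.0 and 47.1 TPM in CHLA 04, 45.9 TPM in CHLA 05, and 33.9 and 30.7 TPM in CHLA 06. It was also lowest in CHLA 06, but its largest difference was -1.02, against CHLA 02.

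Among the 12162 genes with a mean of at least 5 TPM, likeness to each gene was measured by the root mean square difference of mean-centred log2(TPM + 1) over the 4 lines, which are few points and share their libraries. Nearest to NR2F1 were KIAA1467 (0.0447), RASL10A, DGCR6, CLIP2 and QKI, an RNA-binding protein of glia. KIAA1467 was at 15.4 TPM in CHLA 02, a mean of 28.0 in CHLA 04, 25.9 in CHLA 05 and a mean of 5.43 in CHLA 06. Nearest to NR2F1-AS1 were DUSP10 (0.0783), a phosphatase of stress kinases, SLC2A3, a glucose transporter, NAB1, SSBP2 and GPM6A, a neuronal membrane glycoprotein. DUSP10 was at 8.51, 13.1, 11.7 and 0.777 TPM in the same order of lines. NR2F1 ranked 123 in likeness to its antisense RNA (0.403), since its CHLA 06 level lay nearer to those of the other lines.

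NR2F2 was most like SPTBN1 (0.0355), a spectrin, followed by GAB2, CEND1, POU6F1 and JARID2, a cofactor of Polycomb. SPTBN1 was at 234, 417, 117 and 152 TPM in the same order of lines. NR2F6 was most like RSL1D1 (0.0153), a nucleolar protein, followed by SYF2, OFD1, OXA1L and PIK3R4. As NR2F6 itself varied little, many genes lay close to it.

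Among the 9 other members of the NR2 subfamily, which include the RXR receptors that pair with many nuclear receptors, NR2E1 had the widest range. NR2E1, or TLX, which maintains neural stem cells, was at 56.1 TPM in CHLA 02, 160 and 150 TPM in CHLA 04, 107 TPM in CHLA 05, and 0.0495 and 0.0448 TPM in CHLA 06. It was the only member of the list past 4-fold in CHLA 06 minus CHLA 04 (1 of 8) and CHLA 06 minus CHLA 05 (1 of 6), and the list medians were -0.57 and -0.10, beside -0.23 and -0.21 over all genes, of which 15.1% and 14.0% were past 4-fold. NR2E3 and RXRG, next in range, did not pass 3.55 TPM in a library.

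Cofactors of the NR2F receptors numbered 14, of which 13 reached 1 TPM. In CHLA 06 minus CHLA 04, 2 were lower past 4-fold and 0 higher, with a list median of -0.60, a share near the 15.1% of all genes, whose median was -0.23. BCL11A, a zinc finger repressor that binds NR2F proteins, was at 28.9 TPM in CHLA 02, 55.6 and 43.7 across the CHLA 04 libraries, 3.72 in CHLA 05, and 0.157 and 0.178 in the CHLA 06 libraries. ZFPM2, or FOG2, a partner of GATA factors and NR2F2, was at 4.2 TPM in CHLA 02, 7.39 and 7.26 across the CHLA 04 libraries, 1.91 in CHLA 05, and 0.150 and 0.0591 in the CHLA 06 libraries. NRIP1, a corepressor, had a narrower range, from 1.03 TPM in CHLA 05 to 5.63 TPM in a CHLA 04 library. By library, 4 of the 13 cofactors had both CHLA 06 libraries below the other 4 and 2 had both above, near the 28.5% and 16.8% of all genes.

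Genes known to respond to NR2F1 or NR2F2 in other systems differed in both directions. In CHLA 06 minus CHLA 05, 6 of 11 were lower and 1, BHLHE41, higher past 4-fold, with a list median of -2.04, beside 14.0% in either direction and a median of -0.21 over all genes. In CHLA 06 minus CHLA 04, 5 of 13 were lower and 2, NRP2 and BHLHE41, higher, with a list median of -0.97, beside 15.1% and -0.23 over all genes. In CHLA 06 minus CHLA 02, 4 of 12 were lower and 0 higher, with a list median of -0.63, beside 4.53% and -0.04 over all genes. SOX9, a glial and progenitor factor, was at 7.71 TPM in CHLA 02, 24.3 and 26.7 across the CHLA 04 libraries, 228 in CHLA 05, and 0.0657 and 0.0297 in the CHLA 06 libraries. NRP2, a semaphorin and VEGF receptor, was at 13.7 TPM in CHLA 02, 1.69 and 1.60 across the CHLA 04 libraries, 105 in CHLA 05, and 51.3 and 26.9 in the CHLA 06 libraries. FABP7, given above, is in this list too. NRP2 was thus higher in CHLA 05 and CHLA 06, the lines with the least NR2F2, than in CHLA 02 and CHLA 04. Between the technical replicates of CHLA 06, NRP2 and NR2F2 were both higher in the first, a spread between libraries of 1 biological sample. SOX9 was highest in CHLA 05 and lowest in CHLA 06. A link between these genes and the receptors was not tested.

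Of the 10 cortical patterning genes, 6 reached 1 TPM, and 3 of these 6 had both CHLA 06 libraries below the other 4, beside 28.5% of all genes. PAX6 was at 15.8 TPM in CHLA 02, 29.7 and 26.2 across the CHLA 04 libraries, 36.9 in CHLA 05, and 0.604 and 0.937 in the CHLA 06 libraries. PAX6 is also among the neural stem and progenitor markers and the genes known to respond to NR2F1 or NR2F2. The counts of these lists thus share genes. EMX2 was at 37.6 TPM in CHLA 05 and at most 1.51 TPM elsewhere. In CHLA 06 minus CHLA 05, 5 of 6 measured genes were lower past 4-fold, with a list median of -4.0, and in CHLA 06 minus CHLA 04, 3 of 5 were lower and 1, EOMES, higher, with a list median of -3.43, beside 14.0% and 15.1% of all genes in either direction. In CHLA 06 minus CHLA 02, 2 of 4 were lower and 0 higher, with a list median of -2.34, beside 4.53% of all genes.

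Retinoic acid genes past 4-fold were higher in CHLA 06 than in CHLA 04 or CHLA 05, but none was past it against CHLA 02. In CHLA 06, 3 of 9 measured genes were higher past 4-fold and 0 lower against CHLA 04, and 3 of 9 higher and 0 lower against CHLA 05, with list medians of 1.08 and 1.29, beside 15.1% and 14.0% of all genes in either direction. Against CHLA 02, 0 of 8 were higher and 0 lower, with a list median of 0.36, beside 4.53% of all genes. ALDH1A1, which makes retinoic acid, was at 26.5 TPM in CHLA 02, 0 and 0.180 across the CHLA 04 libraries, 0.145 in CHLA 05, and 79.1 and 48.6 in the CHLA 06 libraries. RARG, a retinoic acid receptor, was at 38.7 TPM in CHLA 02, 5.32 and 2.79 across the CHLA 04 libraries, 22.0 in CHLA 05, and 68.0 and 64.8 in the CHLA 06 libraries. The COL1A1 values above, high in CHLA 02 and CHLA 06, followed the same lines as ALDH1A1.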

How the data were processed

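Total RNA was extracted with a column kit, and strand-preserving paired-end libraries of 125 bp reads were sequenced on a HiSeq 2500. After trimming with Trimmomatic and mapping to GRCh38 in CLCbio Genomics Workbench, the authors deposited TPM per Ensembl release 82 transcript and, in a separate mapping, TPM per RepeatMasker LTR element, 12 files for 6 libraries. Submitters' processing notes name CASAVA 1.8.2 and FastQC, and other versions are not given in the sources used here. TPM keeps no depth, so read numbers were worked out from the step in TPM that 1 read makes (at least 99.6% of values whole, within 0.05 reads or the rounding), which was tested on simulated data (100% recovered). Intervals are exact Poisson and cover counting error only, and those of technical replicates of the same line did not always overlap. Depth was 10265899 to 20520229 reads on transcripts and 355302 to 511408 on LTR elements.

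Differences used log2(TPM + 1) of line means, genes with at least 1 TPM in either line, and a 4-fold threshold, without any test, since each line was 1 biological sample. The 4 genes and all lists were chosen with earlier results of these data known. Named were transcripts above 1% of a gene's TPM, LTR elements with at least 5 reads, the 5 most similar genes per member, and the 3 genes of widest range in each list; the other named genes (SMARCB1, VIM, TUBB3, PDGFRB, CD3E, HBB, EOMES and BHLHE41) were chosen after their values were seen. Some genes that the rule names are not reported here. Alternatives were pseudocounts of 0.1 and 2, no filter, quantile normalization, median ratio scaling, the most abundant transcript, the maximum of technical replicates, leaving out each technical replicate, and for LTR elements overlap, a minimum of 5 reads and reads scaled to the total on transcripts. For NR2F1-AS1 the most abundant transcript was fixed as ENST00000606696 in every library. Promoters came from RefSeq (GRCh38.p14), the sequence of the LTR element from GRCh38. Computations used Python 3.11.15, numpy 2.4.6, pandas 2.3.3, scipy 1.17.1 and matplotlib 3.10.9.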

Additional observations from a re-analysis of the deposited data

How the results depend on the processing

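Of 264 recomputed differences of the 4 genes, 239 were counted as close to the main value, 25 as moved from it, and 4 changed sign. CHLA 02 and CHLA 05 had 1 library each, so their difference had no technical replicates of its own to judge by. The sign changes were NR2F1-AS1 in CHLA 05 minus CHLA 02 (-0.67 with ENST00000606696 alone, against 0.61), NR2F1 in CHLA 05 minus CHLA 04 (-0.10 with the maximum of technical replicates and without CHLA 04 replicate 2, against 0.02) and NR2F1-AS1 in CHLA 05 minus CHLA 04 (0.23 without CHLA 04 replicate 1, against -0.12). The number of genes past 4-fold between CHLA 06 and CHLA 04 was 1 in place of 2 with quantile normalization (NR2F1 at -1.90) and 1 with median ratio scaling (NR2F1 at -1.89). Between CHLA 06 and CHLA 05 it was 1 with median ratio scaling (NR2F1 at -1.94) and 1 with a single transcript per gene (NR2F1-AS1 at -1.64 with ENST00000606696). Each of the other 62 recomputed counts stayed within 1.5 times.

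With a minimum of 5 reads, the LTR elements with reads inside NR2F1-AS1 numbered 9 in place of 14 in CHLA 04, 8 in place of 13 in CHLA 05 and 4 in place of 11 in CHLA 06. Leaving out a technical replicate of CHLA 06 gave 6 (without replicate 1) to 11 elements, and of CHLA 04 gave 12 to 13. The log2 difference of summed LTR TPM between CHLA 04 and CHLA 06 was 3.48, 2.87 without CHLA 04 replicate 1 and 3.91 without CHLA 04 replicate 2. No paired analysis was possible because no result comes from a test. The single culture of each line and, for LTR elements in CHLA 06, the 53 and 54 reads limit these values.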
